A study of Micropterus salmoides with 68 samples.

Results

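Aminoacyl-tRNA synthetases attach each amino acid to its matching tRNA, the step that sets the genetic code before the ribosome reads it. Animal cells keep one set of these enzymes in the cytosol and another, encoded by separate nuclear genes for most amino acids, in mitochondria, where they serve the few proteins that mitochondria make themselves. Several cytosolic enzymes sit together in a multi-synthetase complex, and in mammals many cytosolic synthetase genes are targets of the transcription factor ATF4, which is active when amino acids are short or the endoplasmic reticulum is stressed. Transcripts of these genes were followed in liver and spleen of the largemouth bass (Micropterus salmoides) around a transport by car. They were found by gene name: a letter of the amino acid code and "ars", with 1, 2, a or b where present, which takes in farsa, farsb and lars1b, together with eprs1. Of the 18666 genes in the table, 33 found in this way are described here, of which 18 are counted as cytosolic (name ending in 1, or without a number) and 15 as mitochondrial (name ending in 2). In mammals the genes named gars1 and kars1 serve both compartments. Just outside the name rule lie tars3 and aarsd1. The cytosolic tryptophan gene wars1 was not analysed here.

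RNA was sequenced from 34 livers and 34 spleens of fingerlings in 9 groups per tissue, with 3 or 4 libraries in each. Fish were sampled when netted from a concrete pond before transport (T0, 4 libraries per tissue), at the end of 4 h in aerated boxes in a car (Te, 4), and after 1 day of recovery in indoor aquaria (R1d, 4). After 3, 4 and 5 days, fish that the labels call abnormal (AB) and fish that they call normal (NO) were sampled side by side, with 3 libraries of each label on day 3 and 4 of each on days 4 and 5, so 11 per label and tissue. The labels give no criterion for the 2 words. Boxes held 125 fish in 30 L of water, and a room temperature of 28 °C is given. The fish averaged 11.99 ± 4.34 g in weight and 10.32 ± 3.02 cm in length (SD). No strain or genotype is given, and no fish was fed during the experiment. None of the 68 libraries comes from untransported fish sampled after T0. Transport, fasting, tank and time thus cannot be told apart in any comparison with T0. Values are TPM, a share of each library's transcripts corrected for transcript length, so one gene's level depends on all others in the library. Differences are of log2(TPM + 1), which understates changes of low genes, and a gene was called where the limma p adjusted over all genes tested in the tissue lay under 0.05. In bulk tissue, fewer cells of a type and less RNA per cell cannot be told apart, and this holds for every value below.

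The liver markers apoa2, tfa and fgb lay at 2264 TPM or more in every liver, while fabp10a was listed at 0 in the lowest. The spleen markers cd79a, hemgn and alas2 lay between 5.67 and 3113 TPM in spleens, and cd74a was not measured. In livers cd79a reached at most 3.81 TPM, while hemgn and alas2 reached 53.3 and 148 TPM and overlapped the spleens. Libraries that correlated least with the rest of their group were the 4 R1d spleens (mean r of 0.857, 0.854, 0.831 and 0.805 for replicates 1 to 4), T0 liver 4 (0.838) and R1d liver 3 (0.890). T0 liver 4 carried 594 TPM of cytosolic synthetase transcripts in sum, against 145 to 183 TPM in the other T0 livers, and R1d spleen 4 carried 1510 TPM, against 409.6 to 582 TPM in the others of its group. Test results that rest on these libraries are given with and without them, while levels, sums and covariation are given over all libraries.

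The members with the highest levels were cytosolic and those with the lowest mitochondrial. Over the 34 livers, aars1 (alanine) had the highest mean at 38.9 ± 19.1 TPM (SD), followed by rars1 (arginine) at 37.1 ± 26.0 TPM and qars1 (glutamine) at 30.04 ± 12.1 TPM. T0 liver 4 held 120.6 TPM of aars1, against 16.7 to 23.9 TPM in the other T0 livers, and the order of aars1 and rars1 rests on it. The lowest were mars2, sars2 and wars2, the mitochondrial enzymes for methionine, serine and tryptophan, at means of 0.245, 0.827 and 1.05 TPM. In the 34 spleens rars1 led at 188 ± 125 TPM, followed by kars1 (lysine) at 60.3 ± 31.9 TPM and sars1 (serine) at 52.9 ± 32.3 TPM, while mars2, wars2 and sars2 were lowest at 1.16, 1.40 and 3.00 TPM. Among the leading members the gap between neighbours exceeded the SD of both only between rars1 and kars1 in spleen. For 11 amino acids both a cytosolic and a mitochondrial gene were measured. The cytosolic gene was higher in all 34 livers for alanine, leucine, methionine, arginine, serine and valine, and in all 34 spleens for these and tyrosine. It was higher in 22 livers and 26 spleens for threonine, in 25 livers and 18 spleens for isoleucine and in 28 livers and 25 spleens for asparagine. For cysteine it was higher in 33 livers and 33 spleens and for tyrosine in 33 livers. For these 5 amino acids the order thus changed between libraries of a tissue. All members but mars2, which missed the filter of 1 TPM in 3 libraries there, were tested in liver, 32 genes, and all 33 in spleen.

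**Figure D1:**
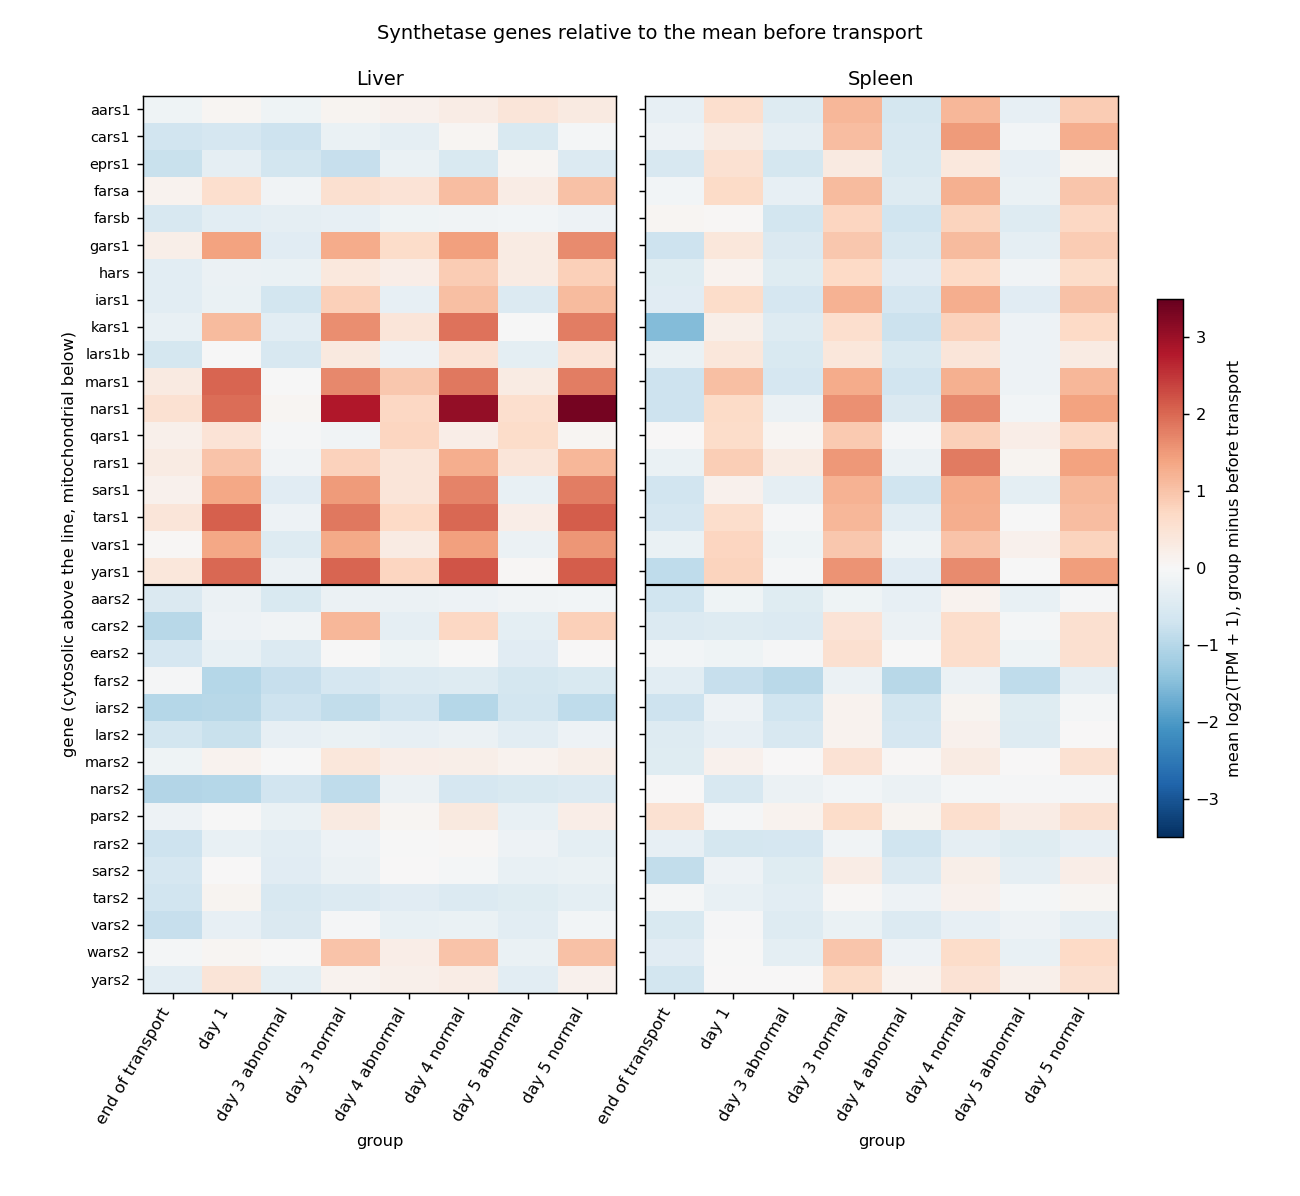
Mean log2(TPM + 1) of each synthetase gene in each later group minus its mean before transport, for 33 genes (rows) and 8 groups (columns) in liver and spleen; red is higher than before transport and blue lower. Most cytosolic rows are redder in normal than in abnormal columns.

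The first comparison asks what separates fish labelled abnormal from fish labelled normal 3 to 5 days after transport, starting with liver. In AB livers 13 of 18 cytosolic synthetase genes were lower than in NO livers and none was higher. Of 14 mitochondrial genes tested, 5 were lower and none higher. Among all genes tested in liver, 50.4% were called in this comparison, 29.1% higher and 21.3% lower, and the median gene differed by 0.09 on the log2 scale, against a median of -1.05 for the cytosolic and -0.12 for the mitochondrial members. When each library was rescaled by its median ratio to all libraries of the fit, no member was higher and 22 were lower. Rescaling brought the median of all genes to between -0.14 and 0.0985 in every comparison given here. The share of all genes called after rescaling is not given for any comparison, so member counts after rescaling have no such share beside them.

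The gene with the widest gap was nars1, which encodes asparaginyl-tRNA synthetase. It ran from 2.20 to 14.9 TPM (median 3.72) in the 11 AB livers, against 7.6 to 78.7 TPM (median 33.6) in the 11 NO livers (log2 difference -2.61, SE 0.40, adjusted p = 2.73e-06). The ranges overlap through 2 AB livers, replicate 1 of day 5 at 14.9 TPM and replicate 4 of day 4 at 8.52 TPM, and 2 NO livers, at 7.6 and 12.5 TPM. In yars1 (tyrosine) the AB livers held 0.71 to 5.83 TPM, median 2.19, against 3.02 to 34.1 TPM, median 13.0, in NO livers (-1.91, SE 0.34, adjusted p = 3.38e-05). The seryl-tRNA synthetase gene sars1 had 5.83 to 26.6 TPM, median 11.9, in AB livers and 11.52 to 90.1 TPM, median 42.0, in NO livers (-1.76, SE 0.35, adjusted p = 0.000109). For kars1 the values were 6.06 to 22.4 TPM, median 12.4, in AB livers and 19.3 to 86.2 TPM, median 44.6, in NO livers (-1.76, SE 0.25, adjusted p = 1.04e-06). In each of these 4 genes the AB median lies below every NO liver but, for sars1, the lowest one. The other lower cytosolic members ran from hars (histidine) at -0.60 to tars1 (threonine) at -1.75. The weakest call was rars1 at -0.83 (adjusted p = 0.0479), which was lost in 15 of 22 fits without 1 library (adjusted p up to 0.096) and when every gene was tested without a filter (0.0564).

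The label difference was also read on each day. The 18 cytosolic genes summed to a mean of 187, 284 and 287 TPM in AB livers on days 3, 4 and 5, against 396, 548 and 484 TPM in NO livers. Means were lower in AB livers for 16, 16 and 14 of the 18 genes on these days, with no overlap within the day in 12, 1 and 4 genes. Shares of all genes are not given for these day counts. Of the enzymes of the multi-synthetase complex, some passed the test and others did not. The gene eprs1, a joined glutamyl- and prolyl-tRNA synthetase, differed by 0.32 (adjusted p = 0.409) and qars1 (glutamine) by 0.39 (adjusted p = 0.148), while iars1 (isoleucine) and mars1 (methionine) fell by 1.46 and 1.37.

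**Figure D2:**
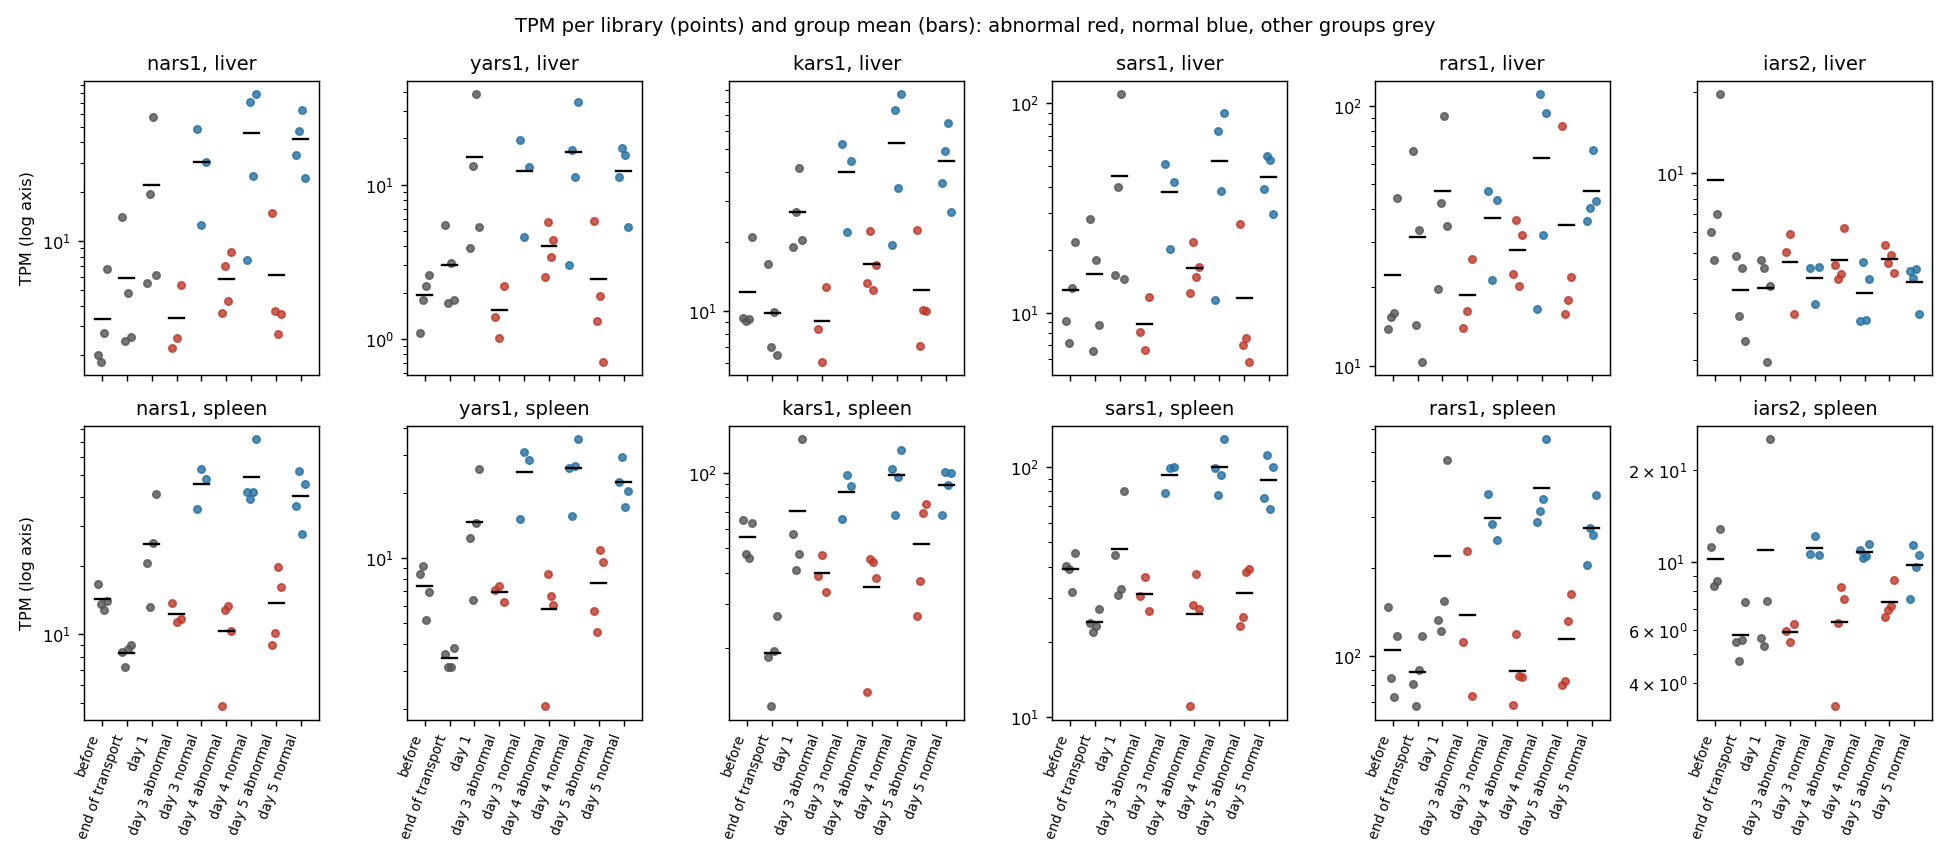
TPM in each library (points, log axis) and the group mean (bars) for nars1, yars1, kars1, sars1, rars1 and iars2 in liver (top) and spleen (bottom), with abnormal fish in red and normal fish in blue. In spleen the abnormal points for nars1 lie at 19.8 TPM or below and the normal ones at 27.5 TPM or above, while in liver the points overlap, at up to 14.9 TPM in abnormal and from 7.6 TPM in normal fish.

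The mitochondrial members had smaller differences in liver on the log2(TPM + 1) scale. That scale understates changes of low genes, as most of these are, in the class medians and in the pairs below. Of the 5 that fell, cars2 (cysteine) and wars2 (tryptophan), chosen after their values were seen, had the widest differences. For cars2 the 11 AB livers held 0.95 to 3.17 TPM, median 1.75, against 3.20 to 7.25 TPM, median 5.13, in NO livers (-1.17, SE 0.14, adjusted p = 2.99e-08). For wars2 they held 0.04 to 1.15 TPM, median 0.52, against 1.06 to 2.76 TPM, median 2.42, in NO livers (-1.02, SE 0.12, adjusted p = 2.13e-08; -1.93 with a pseudocount of 0.1). The ranges of cars2 do not overlap, and those of wars2 do so by 1 AB and 1 NO liver. Outside the NO livers, wars2 reached 1 TPM only in AB liver 2 of day 4, at 1.15 TPM. It thus passed the filter of 1 TPM in 3 libraries through the NO livers, where it is high. The other 3, pars2 (proline), yars2 (tyrosine) and ears2 (glutamate), fell by 0.44, 0.35 and 0.34. The call of ears2 was lost in 8 of 22 fits without 1 library (adjusted p up to 0.0714), and that of yars2 without AB liver 2 of day 3 (adjusted p = 0.0624). Of the 10 amino acids with both genes tested, the difference of the cytosolic gene lay below that of the mitochondrial gene in 8 and above it in 2.

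Phenylalanyl-tRNA synthetase is built from an alpha and a beta subunit, encoded by farsa and farsb, and in liver the test was passed by farsa alone. The alpha subunit gene averaged 21.4 ± 11.8 TPM in AB livers, against 33.7 ± 13.9 TPM in NO livers (-0.67, SE 0.28, adjusted p = 0.0431). The beta subunit gene averaged 20.2 ± 3.60 TPM in AB livers, against 20.3 ± 5.03 TPM in NO livers (0.01, SE 0.18, adjusted p = 0.979). The call of farsa was lost in 14 of 22 fits without 1 library, with adjusted p up to 0.0947. Differences between the 2 subunits were not tested.

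Marker genes of other cells differed between these livers too, and their part in the differences above was not tested. The 19 measured hepatocyte genes of 25 listed summed to 131200 to 176700 TPM in AB livers, against 79200 to 121500 TPM in NO livers. Red blood cell genes, 9 of 12 listed, summed to 142 to 384 TPM in AB livers and 23.9 to 61.8 TPM in NO livers. The 6 measured exocrine pancreas genes of 32 listed, without prss1, ctrb1, cpa1 and cel.1, summed to 407 to 3997 TPM in AB livers and 43.5 to 937 TPM in NO livers, and the 3 measured neutrophil genes of 8 to 4.09 to 44.2 and 24.0 to 75.9 TPM. Macrophage genes, 3 of 8, summed to 16.6 to 89.5 TPM in AB and 45.6 to 124 TPM in NO livers. The 4 measured B and plasma cell genes of 11 listed reached at most 5.14 TPM in AB and 1.70 TPM in NO livers, and the 4 T cell genes of 9 at most 9.33 and 5.80 TPM.

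In spleen all 18 cytosolic genes were lower in AB than in NO spleens, as were 10 of 15 mitochondrial genes, and none was higher. Here 61.9% of all genes tested were called, 7.75% higher and 54.2% lower, and the median gene had -0.51, against medians of -1.44 for the cytosolic and -0.48 for the mitochondrial members. The direction of the mitochondrial genes depends on that shift: after rescaling by median ratios, which brought the median gene to 0.01, 15 cytosolic genes were still lower and none higher, while of the mitochondrial genes 5 were higher and 1, wars2, was lower. The split of members called higher and lower was thus 0 and 28 as reported and 5 and 16 after rescaling. The 3 cytosolic genes no longer called were eprs1, lars1b and qars1.

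Of the spleen genes, nars1 again led. The 11 AB spleens held 4.83 to 19.8 TPM, median 11.7, against 27.5 to 72.0 TPM, median 42.3, in the 11 NO spleens (-1.83, SE 0.18, adjusted p = 1.27e-09; -1.20 after rescaling). The tyrosyl gene yars1 held 2.06 to 10.9 TPM, median 6.66, in AB and 15.2 to 35.4 TPM, median 26.1, in NO spleens (-1.72, SE 0.21, adjusted p = 4.44e-08; -1.12 after rescaling). Neither gene has any overlap between the labels. For mars1 the AB spleens held 1.11 to 7.51 TPM, median 3.11, against 8.01 to 20.2 TPM, median 12.8, in NO spleens (-1.70, SE 0.20, adjusted p = 2.66e-08). The isoleucyl gene iars1 held 1.89 to 8.29 TPM, median 5.44, in AB and 15.6 to 27.2 TPM, median 19.5, in NO spleens (-1.70, SE 0.21, adjusted p = 7.32e-08; -1.11 after rescaling). In 15 of the 18 cytosolic genes no AB spleen overlapped a NO spleen, and rars1, kars1 and eprs1 were the exceptions. The share of all genes without overlap is not given here, and 54.2% of all genes were called lower in this comparison. The most abundant member, rars1, ran from 68.4 to 230 TPM, median 85.3, in AB spleens and from 205 to 555 TPM, median 288, in NO spleens, with 1 AB spleen of day 3 (replicate 2) among the NO values.

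Both phenylalanyl subunit genes fell in spleen: farsa averaged 12.0 ± 2.86 TPM in AB and 33.8 ± 6.06 TPM in NO spleens (-1.43; -0.81 after rescaling), and farsb 15.03 ± 4.44 TPM in AB and 38.4 ± 4.24 TPM in NO spleens (-1.35; -0.72 after rescaling). The difference of the cytosolic gene lay below that of its mitochondrial partner for all 11 amino acids with both genes, on a scale that understates changes of low genes. On days 3, 4 and 5 alike, all 18 cytosolic means were lower in AB than in NO spleens, with no overlap within the day in 18, 18 and 16 genes. Shares of all genes are not given for these day counts, and 54.2% of all genes were called lower over the 3 days.

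Marker sums differed between these spleens as well, and their part was not tested. Red blood cell genes summed to 913 to 2873 TPM in AB spleens, against 85.1 to 681 TPM in NO spleens. Macrophage genes summed to 355 to 1570 TPM in AB and 1807 to 3178 TPM in NO spleens, and neutrophil genes to 69.6 to 828 and 546 to 1764 TPM. B and plasma cell genes summed to 123 to 343 TPM in AB and 33.1 to 96.4 TPM in NO spleens, T cell genes to 23.8 to 174 and 74.5 to 155 TPM, hepatocyte genes to 170 to 4137 and 2263 to 5810 TPM, and pancreas genes to 21.5 to 6169 and 8.57 to 521 TPM.

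**Figure D3:**
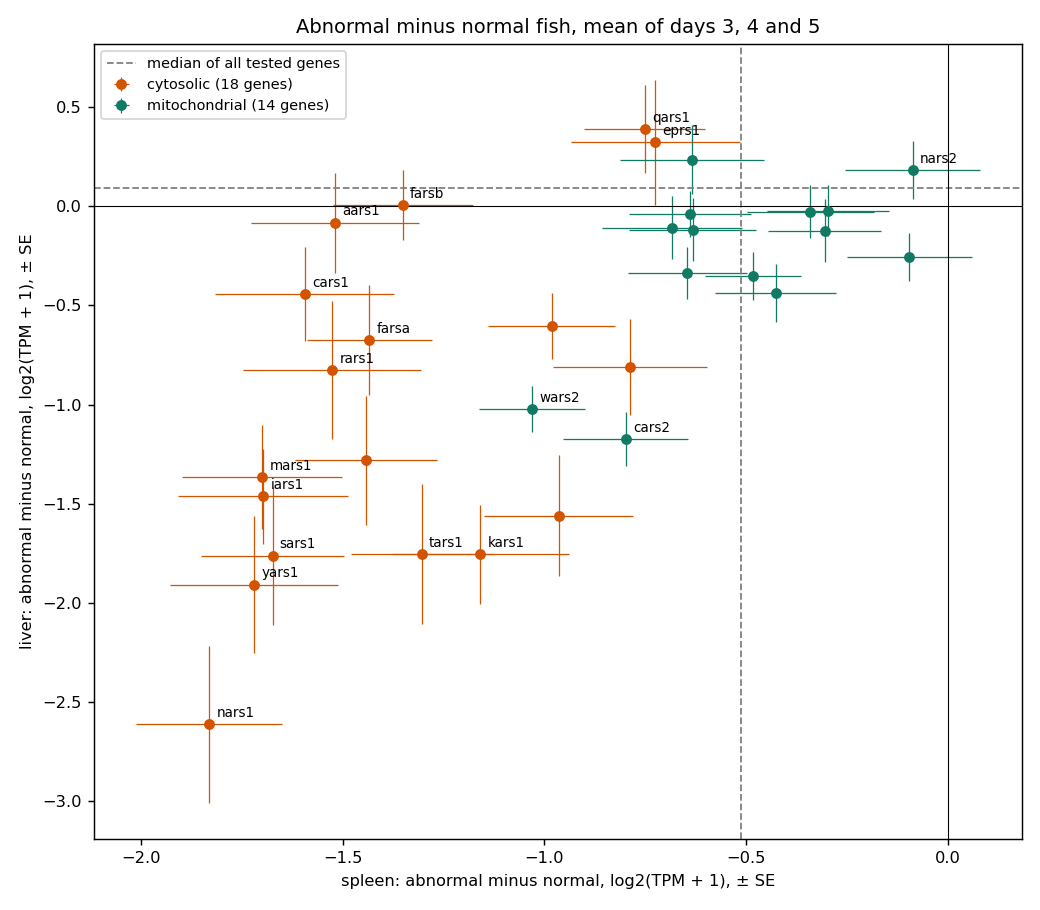
Abnormal minus normal, log2(TPM + 1) with SE, for 32 synthetase genes in spleen (horizontal) and liver (vertical); dashed lines mark the median of all tested genes, -0.51 in spleen and 0.09 in liver. All genes lie left of 0 in spleen, where rescaling by median ratios put 7 mitochondrial genes right of it, and nars1 is lowest in both tissues.

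Whether the label difference was the same in both tissues was tested as an interaction, liver minus spleen. It was called for 10 of 33 members, all with a higher value in liver, where 54.2% of all genes were called, 47.4% higher and 6.74% lower, and the median gene had 0.55. The largest were aars1 (1.44, SE 0.33, adjusted p = 0.000246) and farsb (1.36, SE 0.24, adjusted p = 5.64e-06), both low in AB spleens and close to 0 in liver, at -0.08 and 0.01. They were at 0.77 and 0.70 after rescaling. The other 8 calls ran from 0.52 for lars2 to 1.15 for cars1, and rescaling left 3 members higher and 14 lower in liver, so that the sign or the call of the 7 calls other than aars1, farsb and qars1 rests on the scale. Without 1 library, lars2 lost its call in 21, farsa in 17 and fars2 in 5 of 44 fits (adjusted p up to 0.0813, 0.0836 and 0.0633). With a moderated F test, a change of the label difference with the day was called for no member in either tissue. Of all genes, 0% were called in liver and 0.0167% in spleen. At an unadjusted p under 0.05 in the same test there were 0 members, and the share of all genes at that level is not given here.

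The fish labelled normal were next set against fish before transport, to follow the response in fish without the abnormal label. These comparisons share the NO libraries with those above, and every comparison in the next paragraphs shares the T0 libraries. In NO livers 10 cytosolic genes were higher than in T0 livers and none was lower, and 2 mitochondrial genes were higher and 4 lower. Across the 15430 genes tested in liver the calls came to 51.6%, with 16.9% higher and 34.7% lower. Medians of the difference were 1.03 for cytosolic members, -0.16 for mitochondrial members and -0.24 for all genes. Rescaled by median ratios, 18 members were higher and 1 lower. Without T0 liver 4 and R1d liver 3, 16 members were higher and 2 lower. Marker sums moved as well, and their part was not tested: hepatocyte genes summed to 79200 to 121500 TPM in NO livers, against 145100 to 175400 TPM in T0 livers. Red blood cell genes summed to 23.9 to 61.8 TPM in NO livers and 132 to 366 TPM in T0 livers, and neutrophil genes to 24.0 to 75.9 TPM in NO and 8.21 to 14.1 TPM in T0 livers. The sums of the other 4 lists overlapped.

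For nars1 the 11 NO livers, at 7.6 to 78.7 TPM, lay above all 4 T0 livers, at 2.00, 1.82, 2.75 and 6.69 TPM (3.08, SE 0.54, adjusted p = 2.81e-05). The NO livers also lay above all 4 T0 livers in yars1, at 3.02 to 34.1 TPM against 1.1, 1.79, 2.19 and 2.60 TPM (2.11, SE 0.47, adjusted p = 0.000449). In tars1 and kars1 the NO livers, at 5.90 to 36.7 TPM and 19.3 to 86.2 TPM, overlapped only T0 liver 4, which had 8.58 and 20.9 TPM (2.00 and 1.78, adjusted p = 0.000981 and 9.05e-05).

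Of the lower mitochondrial genes, the isoleucine gene iars2 ran from 2.80 to 4.62 TPM in NO livers, against 6.03, 4.73, 7.03 and 19.7 TPM in T0 livers, without overlap (-0.92, SE 0.24, adjusted p = 0.00189), and fell by 0.52 without T0 liver 4 (adjusted p = 0.0334). The calls of fars2 (phenylalanine, -0.52) and tars2 (threonine, -0.44) were lost without T0 liver 4, at adjusted p of 0.374 and 0.18, after rescaling, at 0.18 and 0.575, and in a fit of the NO and T0 livers alone, at 0.0945 and 0.0846. Single libraries decided these calls, which were lost in 9 of 15 fits for fars2 and 5 of 15 for tars2.

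In NO spleens 15 of 18 cytosolic and 6 of 15 mitochondrial genes were higher than in T0 spleens and none was lower, with 32.1% of all genes called, 21.5% higher and 10.6% lower. The medians were 1.09 for cytosolic members, 0.099 for mitochondrial members and 0.20 for all genes, and rescaling gave 21 members higher and 3 lower. For rars1, the 11 NO spleens at 205 to 555 TPM lay above the T0 spleens at 147, 84.2, 72.7 and 118 TPM (1.59, SE 0.30, adjusted p = 0.000161). The same held for yars1, at 15.2 to 35.4 TPM in NO and 8.40, 9.14, 5.19 and 6.93 TPM in T0 spleens (1.57, SE 0.28, adjusted p = 9.07e-05). It held for nars1 as well, at 27.5 to 72.0 TPM in NO and 16.6, 13.6, 12.8 and 14.1 TPM in T0 spleens (1.56, SE 0.25, adjusted p = 1.71e-05), and for cars1 (cysteine), at 18.4 to 51.2 TPM in NO and 15.3, 9.34, 9.25 and 10.4 TPM in T0 spleens (1.27, SE 0.30, adjusted p = 0.00167). For all 11 amino acids the cytosolic difference was above the mitochondrial one, and in liver for 9 of 10, on a scale that understates changes of low genes. Neutrophil genes summed to 546 to 1764 TPM in NO spleens, against 52.8 to 88.5 TPM in T0 spleens, and hepatocyte genes to 2263 to 5810 TPM in NO and 298 to 693 TPM in T0 spleens. B and plasma cell genes summed to 33.1 to 96.4 TPM in NO and 102 to 135 TPM in T0 spleens. The other 4 sums overlapped, and the part of these markers was not tested.

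Few members passed the test between fish labelled abnormal and fish before transport. In AB livers no member was called against T0 livers, while 9.28% of all genes were, 2.62% higher and 6.66% lower. At an unadjusted p under 0.05 there were 5, all on the lower side: fars2, iars2, tars2, nars2 (asparagine) and vars2 (valine). The share of all genes at that unadjusted level, in either direction, is not given here. Rescaling called 1 higher and 2 lower. Leaving out 1 library gave at most 3 calls, all lower, without T0 liver 2, and 2 and 1 without T0 liver 1 and the day 5 AB liver 1. In AB spleens 2 members, both mitochondrial, were lower than in T0 spleens and none was higher, with 28.6% of all genes called, 3.41% higher and 25.2% lower. These were fars2, at 1.02 to 4.00 TPM, median 2.77, in AB spleens against 5.71, 5.50, 5.55 and 7.23 TPM in T0 spleens (-0.93, SE 0.24, adjusted p = 0.004; -0.61 after rescaling), and rars2 (arginine), at 2.73 to 8.35 TPM against 10.2, 8.43, 9.53 and 10.1 TPM (-0.58, SE 0.22, adjusted p = 0.0433). Neither overlaps, yet rars2 was lost after rescaling (adjusted p = 0.233), in a fit of the AB and T0 spleens alone (0.0521) and in 9 of 15 fits without 1 library, and rescaling left 3 members higher and 1 lower. Without 1 library, the count was 1 in 9 of 15 fits and 4, all lower, without AB spleen 3 or 4 of day 4 or AB spleen 4 of day 5. Red blood cell genes summed to 913 to 2873 TPM in AB spleens, against 476 to 837 TPM in T0 spleens, and pancreas genes to 407 to 3997 TPM in AB livers, against 185 to 357 TPM in T0 livers. The other sums overlapped in both tissues, and the part of these markers was not tested.

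**Figure D4:**
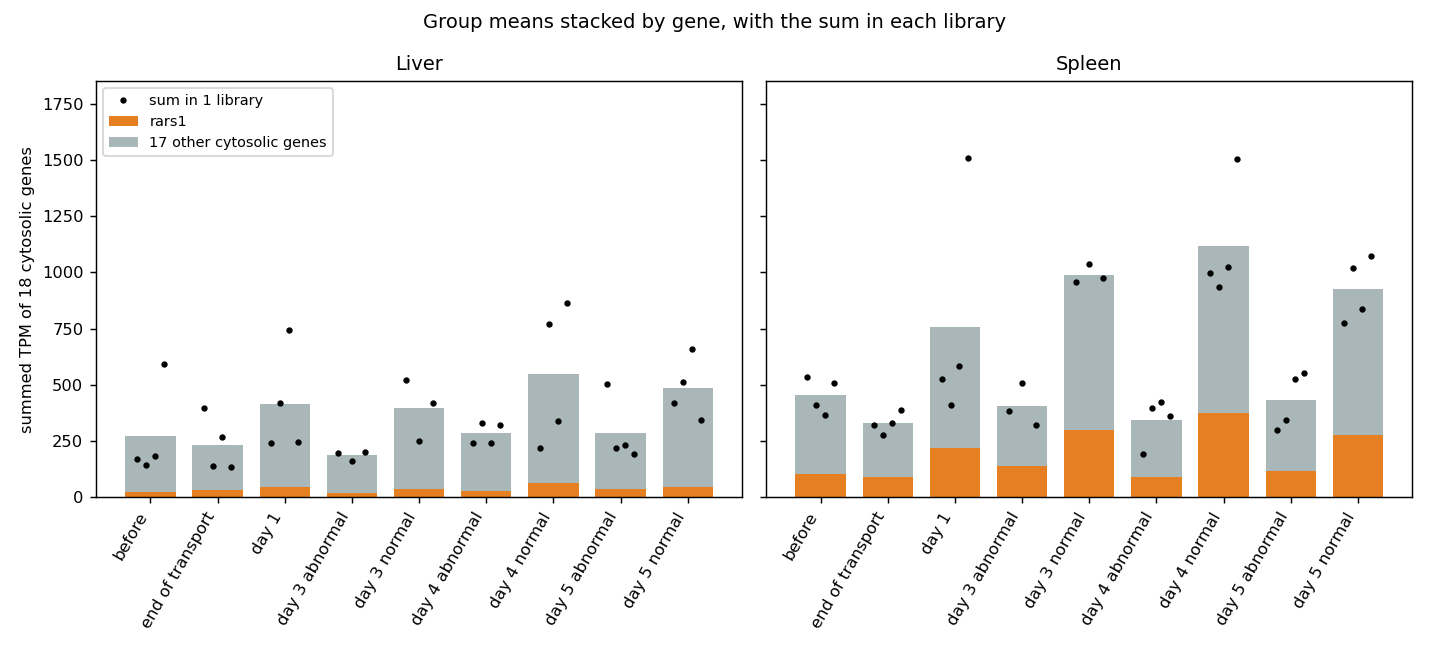
Group means of the summed TPM of the 18 cytosolic synthetase genes in liver and spleen, stacked as rars1 and the 17 other genes, with each library's sum as a point. Normal spleens averaged 988, 1115 and 924 TPM on days 3, 4 and 5, against 453 TPM before transport.

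One day after transport, R1d livers were set against T0 livers. In R1d livers 6 of 18 cytosolic genes were higher than in T0 livers and 4 of 14 mitochondrial genes were lower, with 27.3% of all genes called, 9.99% higher and 17.3% lower. Rescaling gave 11 higher and 4 lower. The R1d livers held 11.02, 28.6, 55.9 and 9.35 TPM of tars1, against 2.88, 1.95, 4.63 and 8.58 TPM in T0 livers (2.10, SE 0.58, adjusted p = 0.00914). They held 5.73, 8.80, 11.6 and 3.77 TPM of mars1, against 0.58, 0.56, 0.75 and 2.23 TPM in T0 livers (2.04, SE 0.43, adjusted p = 0.00134). Neither gene overlaps between the groups. In yars1 R1d livers had 3.90, 13.2, 38.5 and 5.28 TPM, above the 1.1 to 2.60 TPM of T0 livers (2.00, SE 0.57, adjusted p = 0.0106). In nars1 they had 5.51, 19.3, 57.3 and 6.23 TPM, with T0 liver 4 (6.69 TPM) among them (1.96, SE 0.65, adjusted p = 0.0259). R1d liver 3 was the highest in all 4 genes. Neutrophil genes summed to 22.0 to 73.3 TPM in R1d livers, against 8.21 to 14.1 TPM in T0 livers, and pancreas genes to 454 to 884 TPM in R1d and 185 to 357 TPM in T0 livers. The other 5 sums overlapped, and the part of these markers was not tested.

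Much of the day 1 count in liver depends on that library and on the groups fitted. A fit of the R1d and T0 livers alone called 1 member, mars1, in place of 10. The adjusted p there was 0.0865 for tars1, 0.099 for yars1, 0.128 for nars1, 0.175 for fars2 and 0.227 for iars2. Without R1d liver 3, 1 member was higher and 2 were lower, and without it and T0 liver 4, 2 were higher and 1 was lower. Of the 4 genes above, mars1 kept its call in every fit without 1 library (adjusted p up to 0.0107), while tars1, yars1 and nars1 were not called, with adjusted p of 0.066, 0.0844 and 0.166 without R1d liver 3. Over the 8 fits without 1 library, nars1 lost its call in 3, and kars1 and vars1 (valine) in 5 each. On the lower side fars2 held 3.03, 2.31, 1.31 and 2.85 TPM in R1d livers, against 3.97, 4.10, 4.93 and 11.2 TPM in T0 livers (-0.99, SE 0.26, adjusted p = 0.0068). For iars2 R1d livers held 4.73, 4.42, 1.96 and 3.76 TPM, against 4.73 to 19.7 TPM in T0 livers (-0.98, SE 0.29, adjusted p = 0.0123), which was -0.59 without T0 liver 4 and -0.77 without R1d liver 3 (adjusted p = 0.0657 and 0.0776). Without both libraries fars2 and iars2 differed by -0.52 and -0.38, neither called (adjusted p = 0.139 and 0.274).

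In spleen, day 1 gave 1 higher member, mars1, and 1 lower one, fars2, with 20.1% of all genes called, 4.17% higher and 15.9% lower. For mars1 R1d spleens held 9.52, 7.01, 12.0 and 22.8 TPM, against 5.93, 5.44, 4.29 and 5.13 TPM in T0 spleens, without overlap (1.04, SE 0.33, adjusted p = 0.0242). For fars2 they held 1.94, 2.91, 1.71 and 7.27 TPM, against 5.50 to 7.23 TPM, so that R1d spleen 4 was the highest of all 8 (-0.80, SE 0.29, adjusted p = 0.0459). The count here rests on single libraries. Without R1d spleen 4 there were 9 lower members and none higher, without R1d spleen 2 there were 10 higher and none lower, and without T0 spleen 3, T0 spleen 4 or R1d spleen 3 there was no call. Without T0 spleen 1 or 2, 1 higher member was called. Over the 8 such fits mars1 lost its call in 4 and fars2 in 7, and in a fit of the R1d and T0 spleens alone neither was called (adjusted p = 0.165 and 0.294). After rescaling 14 were higher and 2 lower, and the share of all genes called after rescaling is not given here. The red blood cell genes summed to 1965 to 10340 TPM in R1d spleens, against 476 to 837 TPM in T0 spleens. Neutrophil genes summed to 662 to 1653 TPM in R1d and 52.8 to 88.5 TPM in T0 spleens, and macrophage genes to 288 to 1035 TPM in R1d and 1531 to 2748 TPM in T0 spleens. The other 4 sums overlapped, and the part of these markers was not tested. The difference from liver was tested and called for no member (limma, with 1 at an unadjusted p under 0.05), with 17.5% of all genes called, 11% higher and 6.49% lower in liver. The share of all genes at the unadjusted level is not given here.

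At the end of transport the calls in liver were mitochondrial. In Te livers 7 of 14 mitochondrial genes were lower than in T0 livers, and no cytosolic gene was called in either direction. Calls came to 12.2% of all genes, with 2.96% higher and 9.27% lower. Medians of the difference were -0.61 for mitochondrial members, 0.083 for cytosolic members and -0.27 for all genes, and 10 of 10 amino acids had the mitochondrial gene below the cytosolic one. Rescaling left 5 lower members. For iars2 the Te livers held 4.88, 2.91, 4.39 and 2.34 TPM, against 6.03, 4.73, 7.03 and 19.7 TPM in T0 livers (-1.003, SE 0.29, adjusted p = 0.0214). For tars2 they held 4.52, 3.05, 3.20 and 3.74 TPM, against 5.83, 5.52, 5.48 and 8.78 TPM (-0.67, SE 0.21, adjusted p = 0.0371), a call that was lost after rescaling (-0.34, adjusted p = 0.285). The value of iars2 was -0.65 after rescaling and still called. The groups overlap in iars2, through the highest Te and the lowest T0 liver, and do not in tars2. The other 5, nars2, cars2, vars2, rars2 and sars2, averaged at most 3.76 TPM in T0 livers and fell by between 0.58 and 1.04. Neutrophil genes summed to 15.4 to 30.6 TPM in Te livers, against 8.21 to 14.1 TPM in T0 livers, and pancreas genes to 58.8 to 175 TPM in Te and 185 to 357 TPM in T0 livers. The other 5 sums overlapped, and the part of these markers was not tested.

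The count depends on single libraries and on the groups fitted. Leaving out T0 liver 4, Te liver 2 or Te liver 4 left 3 calls each, and a fit of the Te and T0 livers alone left none. In that last fit vars2 and sars2 missed the filter and were not tested. Without T0 liver 4, iars2 differed by -0.61 (adjusted p = 0.116) and tars2 by -0.53 (adjusted p = 0.128), and these calls were lost in 3 and 4 of 8 fits without 1 library. The calls of nars2, cars2 and vars2 held in every fit without 1 library, with adjusted p up to 0.044, 0.0318 and 0.0389. No interaction between tissues was called for any member (limma, with 3 at an unadjusted p under 0.05), with 6.48% of all genes called, 2.06% higher and 4.43% lower in liver. The share of all genes at the unadjusted level is not given here.

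In spleen the end of transport gave 4 lower members and none higher, 1 cytosolic and 3 mitochondrial, with 12.2% of all genes called, 5.23% higher and 6.98% lower. The cytosolic gene was kars1, the lysine gene. Te spleens held 18.5, 11.8, 19.6 and 26.9 TPM of it, against 64.7, 47.5, 45.7 and 63.3 TPM in T0 spleens, without overlap (-1.52, SE 0.36, adjusted p = 0.00573), and the call held without any 1 library (adjusted p up to 0.0324). The alanine gene aars2 held 4.64, 2.99, 4.85 and 4.38 TPM in Te spleens and 8.22, 5.89, 6.84 and 8.65 TPM in T0 spleens (-0.69, SE 0.23, adjusted p = 0.0439), and its call was lost in 7 of 8 fits without 1 library, all but that without T0 spleen 2. The other 2 were sars2 and yars2. The count fell to 1 or 2 without any one of T0 spleens 1, 3 and 4 and Te spleens 2 and 3, and stood at 1 higher and 13 lower after rescaling. It stood at 15, all lower, in a fit of the Te and T0 spleens alone. Marker sums without overlap were those of hepatocyte genes, at 1192 to 6586 TPM in Te and 298 to 693 TPM in T0 spleens, and of neutrophil genes, at 254 to 704 TPM in Te and 52.8 to 88.5 TPM in T0 spleens. B and plasma cell genes, at 63.0 to 76.8 TPM in Te and 102 to 135 TPM in T0 spleens, and T cell genes, at 96.1 to 130.5 TPM in Te and 141.5 to 172 TPM in T0 spleens, did not overlap either. The part of these markers was not tested.

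**Figure D5:**
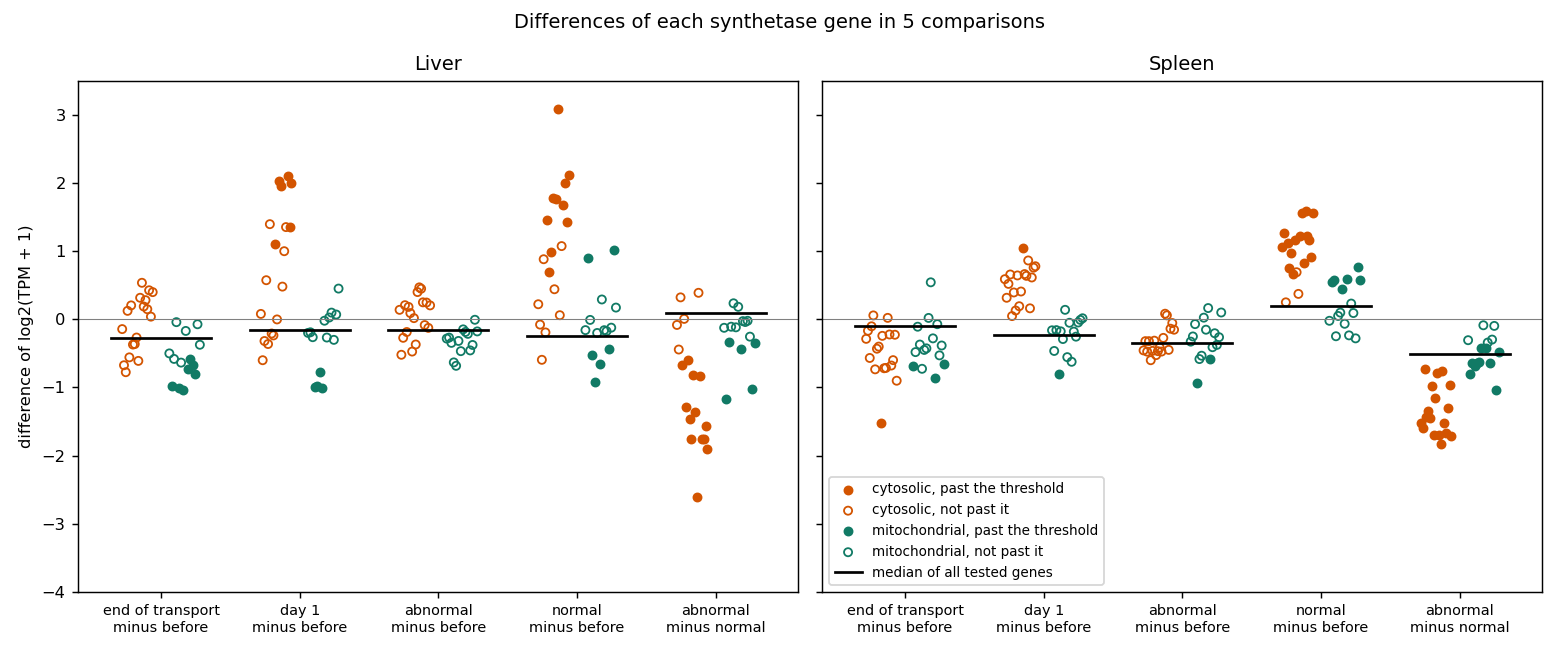
Difference of log2(TPM + 1) of each synthetase gene in 5 comparisons in liver and spleen, cytosolic in orange and mitochondrial in green, filled where called, with the median of all tested genes as a black line. Most filled cytosolic points lie above the line in normal minus before transport and below it in abnormal minus normal, and filled points are few in abnormal minus before transport.

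Before transport, liver and spleen already differed in these genes. In T0 livers no member was higher than in T0 spleens and 22 were lower, where 78.8% of all genes were called, 11% higher and 67.8% lower, and the median gene had -1.12. Rescaling turned this split to 14 higher and 3 lower, so the direction of most members rests on the scale. For rars1 the T0 livers held 13.9, 15.3, 15.9 and 44.1 TPM, against 147, 84.2, 72.7 and 118 TPM in T0 spleens (-2.31, SE 0.49, adjusted p = 3.58e-05; -0.93 after rescaling). For kars1 they held 9.36, 9.13, 9.28 and 20.9 TPM, against 64.7, 47.5, 45.7 and 63.3 TPM (-2.17, SE 0.39, adjusted p = 2.6e-06; -0.81 after rescaling). Likewise nars1 and mars1 were lower in T0 livers without overlap (-1.94 and -1.68; -0.76 for both after rescaling, where nars1 was not called, adjusted p = 0.144).

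Covariation from fish to fish within groups was read as a description. Over 34 livers, with each group's mean removed, the median Pearson r of log2(TPM + 1) between cytosolic members was 0.81, against 0.446 between mitochondrial members and 0.251 between genes at large. Over 34 spleens these medians were 0.821, 0.647 and 0.347. Members share the library and its scale, so these values describe the libraries. They include T0 liver 4 and R1d spleen 4, with cytosolic sums of 594 and 1510 TPM, which stood apart from their groups. Medians of r were not computed without these libraries, and the part of these libraries in the values was not tested.

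Genes that work beside the synthetases were read from lists. Of the non-enzyme proteins of the multi-synthetase complex, aimp2 and eef1e1 were measured. In AB livers aimp2 averaged 126 ± 18.8 TPM, against 61.0 ± 8.72 TPM in NO livers (1.01, SE 0.12, adjusted p = 3.37e-08). In AB spleens it averaged 53.2 ± 18.4 TPM, against 86.8 ± 8.91 TPM in NO spleens (-0.78, SE 0.17, adjusted p = 0.000168). For eef1e1 the difference was -0.01 in AB minus NO livers (adjusted p = 0.966), and it fell by 0.59 in AB spleens (adjusted p = 0.000271). Neither gene of this pair was called in AB spleens after rescaling. Of 12 measured partners in tRNA charging and editing, 2 were higher and 5 lower in AB than in NO livers, and 1 was higher and 6 lower in AB than in NO spleens (6 higher and 3 lower after rescaling). These 7 of 12 calls in each tissue stand beside 50.4% of all genes called in liver and 61.9% in spleen. Among them ankrd16, a cofactor of alanyl-tRNA synthetase in mouse, averaged 3.18 ± 1.31 TPM in AB livers, 0.277 ± 0.165 TPM in NO livers and 7.98 ± 0.900 TPM in T0 livers (1.61 for AB minus NO, adjusted p = 3.16e-09, and -2.82 for NO minus T0, adjusted p = 4.9e-11). The D-aminoacyl-tRNA deacylase gene dtd1, which clears mischarged tRNA, averaged 2.67 ± 0.869 TPM in AB and 6.62 ± 2.01 TPM in NO livers (-1.06), and 6.46 ± 2.23 TPM in AB and 21.7 ± 3.20 TPM in NO spleens (-1.66).

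Genes of the amino acid response, which ATF4 controls in mammals, were counted over 28 tested genes in liver and 30 in spleen. In AB livers 4 were higher and 16 lower than in NO livers, and in AB spleens 1 was higher and 26 were lower than in NO spleens (3 and 20 after rescaling). Of all genes, 29.1% were higher and 21.3% lower in AB livers, and 7.75% were higher and 54.2% lower in AB spleens. In NO livers 12 were higher and 5 lower than in T0 livers, and in NO spleens 15 were higher and none lower than in T0 spleens, where 16.9% of all genes were higher and 34.7% lower in liver and 21.5% higher and 10.6% lower in spleen. The serine synthesis gene psph averaged 0.838 ± 0.578 TPM in AB livers, against 25.6 ± 15.7 TPM in NO livers (-3.60, SE 0.28, adjusted p = 6.32e-12). The amino acid transporter chain gene slc3a2a averaged 31.0 ± 9.44 TPM in AB spleens, against 275 ± 48.2 TPM in NO spleens (-3.17, SE 0.19, adjusted p = 7.69e-14). Transcripts of the factor gene atf4a were lower in NO livers, at 159 ± 52.8 TPM against 469 ± 215 TPM in T0 livers (-1.53, SE 0.24, adjusted p = 6.67e-06). The activity of the ATF4 protein was not measured. Of 11 genes of the eIF2 kinases and of eIF2 and its exchange factor, 4 were higher and 4 lower in AB than in NO livers, led by eif2b2, an exchange factor subunit, at 87.5 ± 23.5 TPM in AB and 20.9 ± 6.30 TPM in NO livers (1.98, SE 0.16, adjusted p = 1.11e-11). In AB spleens 1 was higher and 9 were lower than in NO spleens, and 2 and 3 after rescaling. These 8 and 10 calls of 11 again stand beside 50.4% of all genes in liver and 61.9% in spleen.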

How the data were processed

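RNA of liver and spleen was extracted with TRIzol, depleted of rRNA and made into strand-specific libraries, per the labels' protocols. The submitters' processing notes name fastp 0.23.2 and Salmon 1.10.0; the build of the genome is not given in the sources used here. The deposited table holds 18666 genes in 68 libraries, with values that the labels do not name; they are taken as TPM from the use of Salmon and from deposited column sums of 995833.1 to 999253.8. TPM keeps no depth, so depth is unknown and no counting interval is given. Gene names are those of the table, of which 18657 are in RefSeq assembly ASM1485139v1. That table was used for names alone, and no sequences are printed. Of the genes that match the name rule, 2 are not reported here.

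Differences were tested per tissue, and over both tissues for tissue contrasts, with limma 3.58.1 (R 4.3.3) on log2(TPM + 1): group means, empirical Bayes with trend, genes with at least 1 TPM in 3 libraries, and Benjamini-Hochberg adjustment over all genes tested (15430 in liver, 17998 in spleen, 18666 over both) with a threshold of 0.05. All groups of a fit shared 1 estimate of the spread, and AB and NO were the means of their 3 day means. No 2 libraries of a group held the same values. Tissues were collected individually, per the series' design text, but fish are not named, so p-values measure the spread between libraries. The tests were run on simulated data with known changes. Alternatives were a pseudocount of 0.1, testing every gene, testing genes over 5 TPM alone, rescaling each library by its median ratio, the compared groups alone, a replicate block and each library left out. In fits over both tissues the block was the liver and spleen of the same group and number. Leaving out T0 liver 4 and R1d liver 3 together was added after seeing the data. In each comparison the text names up to 4 rises and 4 falls past the threshold with at least 5 TPM in the higher group, the 3 highest and 3 lowest members by level, both phenylalanyl subunit genes, and up to 3 called genes of each other list. Genes outside this rule were chosen after their values were seen. The members, lists and tests were chosen with earlier results of these data known.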

Additional observations from a re-analysis of the deposited data

Results flagged for a closer look

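Among 189 sets of 4 libraries tested for 1 value far from the rest, 25 values stood apart. The cut-off would pass about 1 in 20 sets of independent, normally distributed values. These sets share libraries and genes that vary together, so the 25 cannot be set against that rate. In T0 liver 4 these were iars2 at 19.7 TPM, tars2 at 8.78 TPM, mars1 at 2.23 TPM, fars2 at 11.2 TPM, kars1 at 20.9 TPM, farsa at 41.4 TPM, farsb at 50.6 TPM, the cytosolic sum at 594 TPM and the mitochondrial sum at 77.8 TPM, each above the other 3 livers. In the AB liver 1 of day 5, tars1 lay at 15.9 TPM, nars1 at 14.9 TPM, sars1 at 26.6 TPM and the cytosolic sum at 503.5 TPM, above the others of its group. In R1d spleen 4, kars1 lay at 136 TPM, aars2 at 13.4 TPM, rars1 at 471 TPM, farsa at 43.7 TPM, farsb at 51.3 TPM and the cytosolic sum at 1510 TPM, again above the rest. In the NO spleen 4 of day 4, nars1 at 72.0 TPM, cars1 at 51.2 TPM, farsb at 48.7 TPM and the cytosolic sum at 1504 TPM were high, while in the AB spleen 1 of day 4 cars1 was low at 2.97 TPM. T0 spleen 4 stood apart in fars2 at 7.23 TPM.

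The difference between AB and NO fish differed between tissues, liver minus spleen on the log2 scale by limma, for aars1 (1.44), farsb (1.36), cars1 (1.15), qars1 (1.14), eprs1 (1.05), iars2 (0.87), farsa (0.76), sars2 (0.60), fars2 (0.58) and lars2 (0.52). Of all genes, 47.4% were called higher and 6.74% lower in this test. Rescaling by median ratios left 3 members higher and 14 lower.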

How the results depend on the processing

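Calls of a member in a comparison came to 122, counting only rars1, kars1, nars1 and mars1 for liver against spleen before transport. Of these, 68 were not lost under any alternative that tested the gene or with any 1 library left out. A call whose sign changed under rescaling was not counted as lost. Depth is unknown, low genes are the least precise, and the groups hold 3 or 4 libraries.

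Counts of members called that moved by more than 1.5 times were as follows. For Te against T0 livers there were 3 with a filter of 5 TPM, where nars2, rars2, sars2 and vars2 were not tested. With the compared groups alone there were 0, and sars2 and vars2 were not tested. For R1d against T0 livers there was 1 with the compared groups alone. Rescaling by median ratios gave 3 for AB against T0 livers, 14 for Te, 16 for R1d and 4 for AB against T0 spleens, and 3, 3 and 17 for the tissue differences of Te, R1d and AB against NO. For Te against T0 spleens there were 2 with a filter of 5 TPM, where sars2 and yars2 were not tested, and 15 with the compared groups alone. For R1d against T0 spleens there was 1 with a pseudocount of 0.1 and 0 with the compared groups alone, and a pseudocount of 0.1 gave 1 for the tissue difference of Te.

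Leaving out 1 library gave 3 to 8 calls for Te, 3 to 12 for R1d and 0 to 3 for AB against T0 livers, 1 to 4 for Te, 0 to 10 for R1d and 1 to 4 for AB against T0 spleens, and 0 to 1 for the tissue differences of Te and of R1d. The single calls among the tissue differences were 1 lower for Te without Te liver 1, and for R1d 1 higher without R1d liver 4. Without T0 liver 4 and R1d liver 3 there were 4 calls for Te, 3 for R1d, 18 for NO and 0 for AB against T0 livers.

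Changes of sign were counted only for values called before or after the change of processing. For liver against spleen before transport only rars1, kars1, nars1 and mars1 were checked. The 12 values that changed sign in this count did so under rescaling, which divides all TPM of a library by the same factor. Low genes then shift less on the log2(TPM + 1) scale. The values that changed sign in AB minus NO spleens became 0.27 for aars2, 0.52 for nars2, 0.13 for pars2, 0.23 for rars2, 0.31 for tars2, 0.41 for vars2 and 0.027 for yars2. The tissue difference of AB minus NO became -0.29 for hars, -0.39 for aars2, -0.06 for lars2, -0.80 for wars2 and -0.47 for yars2.

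Libraries of different groups share replicate numbers, but same-numbered libraries did not deviate together (median r -0.00399 in liver and -0.0112 in spleen, with 17 and 26 of 129 pairs over 0.1), so the numbers were not taken as pairs. Liver and spleen of the same group and number had a median r of 0.203, with 23 of 34 over 0.1. With different numbers in the same group the median r was -0.0842, with 11 of 96 over 0.1. The main fits over both tissues took these libraries as independent. With same-numbered liver and spleen as a block (consensus correlation 0.0382), the member counts stayed the same. They were 0, 0 and 10 for the tissue differences of Te, R1d and AB against NO, and 22 for T0 liver against spleen. With the replicate block there were 5 calls for R1d and 4 for AB against T0 spleens, and the other counts stayed within 1.5 times.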
